A study of Rattus norvegicus with 6 samples.

Results

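Pancreatic β-cells release insulin in response to glucose, and receptors on their surface raise or lower that release. The 10 receptor genes described here were taken from the table by symbol, out of 32900 features in all, and each was found once. They are Glp1r, Gipr and Gcgr (receptors for GLP-1, GIP and glucagon), Ffar1 and Gpr119 (lipid receptors), Chrm3 (muscarinic), Adra2a (adrenergic), Sstr3 (somatostatin), and Insr and Igf1r (insulin and IGF-1 receptors). Their transcripts were measured by total RNA-seq in 6 clonal lines of INS-1(832/13)::mCherry, a rat insulinoma line that carries human INS and mouse Ins2-mCherry transgenes, grown untreated in 7.5 mM glucose. The 3 control lines (5-9, 2 and 16) carry a deletion of the imprinted Prader-Willi syndrome (PWS) domain on the silent maternal allele, and the 3 PWS lines (3, 19-1 and 19-4) carry it on both alleles, so that every line has lost the maternal copy. Lines 2, 16, 3 and 19 were all isolated from line 5-9, and line 19 was subcloned into 19-1 and 19-4, which leaves 2 separate clones in the PWS group. For this, cells of line 5-9 were transfected with an EGFP control vector (lines 2 and 16) or with Cas9 and guide RNAs (lines 3 and 19). This later exposure to Cas9 cannot be told apart from loss of the paternal copy. Line 3 has a larger deletion than planned, with an alternate proximal breakpoint. With 1 library per line, differences between clones, between cultures and between libraries cannot be told apart, and p-values measure the spread between lines only.

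The receptors work through 4 routes. GLP1R, GIPR, GCGR and GPR119 couple to the stimulatory G protein, raise cAMP and amplify the secretory response to glucose. FFAR1, which binds long-chain fatty acids, and CHRM3, which binds acetylcholine, couple to Gq and phospholipase C and mobilize calcium. ADRA2A and SSTR3 couple to inhibitory G proteins and lower secretion, while INSR and IGF1R are receptor tyrosine kinases that signal through IRS proteins, PI3-kinase and AKT.

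Under the authors' nonunique all option, a read that aligns to several places or features is counted at each, which gave 26016478 to 36084261 counts per line. Their nonunique none option, which leaves such reads out, gave 17530149 to 23022637. Values are normalized counts, that is, counts divided by DESeq2's size factors. Snurf and Snrpn, which lie in the deleted domain, had at least 3150 normalized counts in every control line and at most 4 reads in every PWS line. Of 15 β-cell marker genes in the table, 14 had more than 3 reads in all 6 lines, Ucn3 being the exception. Their summed level was 537000 to 608000 in control and 294000 to 507000 in PWS lines, and its part in the receptor values was not tested. Of the 3 δ-cell markers, Sst and Rbp4 had no read in any line, and Hhex had a mean of 1.94 in control and 5.97 in PWS lines, highest in line 19-4 (13.6). The PP-cell marker Ppy had at most 2.75 normalized counts, and the α-cell hormone Gcg had a mean of 10.8 in control and 42.8 in PWS lines.

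No sequence of the receptors themselves was measured, but the regions around their annotated starts differ in a property that the choice of genes did not use. RefSeq (build GRCr8, which is not the annotation used for counting) gave the 250 bases before and 50 bases after the start for 9 of the 10 genes, and Gipr was not among them. The 100 bases before the start are shown for the 3 genes with the largest spread between lines (Gpr119, Sstr3 and Ffar1) and for the 2 with the smallest p-values between groups (Insr and Glp1r), on the strand of the gene, with CpG dinucleotides in capitals.
Gpr119, chrX:132736081-132736180, minus strand: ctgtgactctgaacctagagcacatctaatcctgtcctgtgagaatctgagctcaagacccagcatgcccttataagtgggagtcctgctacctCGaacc
Sstr3, chr7:111980251-111980350, minus strand: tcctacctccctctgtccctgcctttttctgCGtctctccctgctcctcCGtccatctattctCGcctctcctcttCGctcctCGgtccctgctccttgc
Ffar1, chr1:95239690-95239789, minus strand: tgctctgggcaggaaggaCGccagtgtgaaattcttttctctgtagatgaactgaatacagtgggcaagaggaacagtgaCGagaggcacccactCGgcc
Insr, chr12:6128804-6128903, minus strand: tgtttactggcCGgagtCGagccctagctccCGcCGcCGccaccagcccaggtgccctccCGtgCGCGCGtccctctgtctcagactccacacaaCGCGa
Glp1r, chr20:8973293-8973392, plus strand: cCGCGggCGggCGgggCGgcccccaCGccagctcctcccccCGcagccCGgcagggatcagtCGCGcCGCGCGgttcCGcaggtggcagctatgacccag
These windows hold 1 CpG for Gpr119, 5 for Sstr3 and 3 for Ffar1, against 11 for Insr and 14 for Glp1r.

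None of the 10 receptors met the adjusted threshold of 0.05 between PWS and control lines in limma, against 0.257% of the 15579 genes tested (those averaging 5 normalized counts or more). Without adjustment, Insr and Glp1r had p-values under 0.05, 2 of 10, where 11.3% of all tested genes did. Both were higher on average in PWS lines, as were 6% of all tested genes at that threshold, and 5.35% were lower. Of the genes past the adjusted threshold, those higher in PWS lines made up 0.00642% and those lower 0.25% of all tested. On the recovered reads, edgeR's quasi-likelihood test and DESeq2 also called 0 of the 10, and each had the same count of 2 without adjustment, beside 11.4% and 10.4% of all tested genes. The smallest adjusted p-value among the 10 was 0.338 in limma, 0.319 in edgeR and 0.106 in DESeq2. For 1 receptor, Gcgr, the groups did not overlap, against 17.4% of all tested genes (8.43% with PWS lines higher and 9.01% with PWS lines lower). The median log2 fold change of the 10 was 0.19, beside a median of -0.0028 over all tested genes. The log2 fold change was positive for 6 of the 10 in limma and for 5 in edgeR and in DESeq2, where Gpr119 had a negative value, and for 49.3% of all tested genes in limma.

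**Figure D1:**
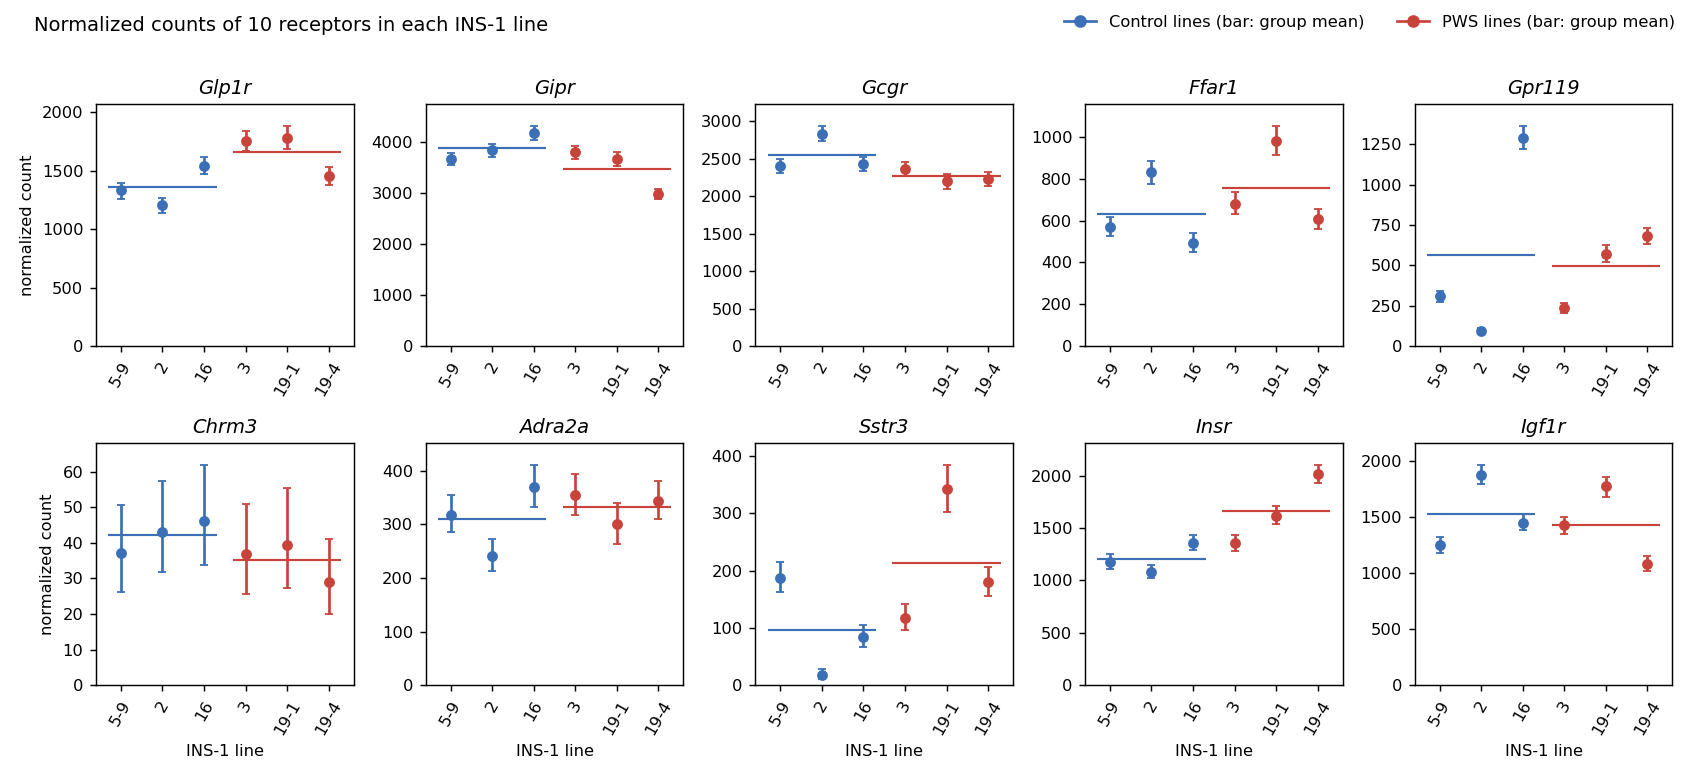
Normalized counts (vertical axis, from 0, a separate scale for each gene) of the 10 receptors in each INS-1 line, control lines in blue and PWS lines in red. Points are 1 library each with exact Poisson 95% intervals of the counting error, and bars are group means. Gpr119 and Sstr3 differ most between lines of the same group, and Gcgr is the only gene with separate groups, by a small margin.

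Glp1r (ENSRNOG00000001152), the receptor of the incretin GLP-1, had 1333, 1207 and 1545 normalized counts in the control lines (5-9, 2 and 16). In the PWS lines (3, 19-1 and 19-4) it had 1756, 1784 and 1455. PWS line 19-4 lay below control line 16, so the groups overlapped, while lines 3 and 19-1 lay above every control line. The means were 1362 ± 171 (SD, n = 3) and 1665 ± 183 (SD, n = 3). The log2 fold change was 0.29 (standard error 0.11), or 1.22-fold with a 95% interval from 1.02 to 1.47, with an adjusted p of 0.412 in limma. Only 65.4% of the Glp1r reads were unique to the gene, the lowest share of the 10. The other 9 genes had between 99.2% and 100%.

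Gipr (ENSRNOG00000015860), the receptor of the other incretin, had 3664, 3838 and 4180 normalized counts in the control lines (5-9, 2 and 16) and 3800, 3667 and 2977 in the PWS lines (3, 19-1 and 19-4). Lines 3 and 19-1 fell within the range of the control lines, and only subclone 19-4 lay below it. In log2 units the groups differed by -0.17 with a standard error of 0.10 (adjusted p = 0.576 in limma), and by -0.059 without line 19-4. The 95% interval ran from 0.756-fold to 1.05-fold.

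Gcgr (ENSRNOG00000036692), the glucagon receptor, had 2407, 2832 and 2423 normalized counts in the control lines (5-9, 2 and 16) and 2363, 2197 and 2230 in the PWS lines (3, 19-1 and 19-4). All PWS lines lay below all control lines, but line 3 was close to the parental line 5-9, and their counting intervals (2270 to 2460 and 2310 to 2500) overlapped. The means of 2554 ± 241 (SD, n = 3) and 2263 ± 88.2 (SD, n = 3) gave a log2 fold change of -0.17 (standard error 0.08). Its 95% interval was 0.780-fold to 1.01-fold and its adjusted p 0.480 in limma. Without line 2, the highest control line, the log2 fold change was -0.094. Gcgr had the smallest spread between lines among the 10.

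Ffar1 (ENSRNOG00000024009), the long-chain fatty acid receptor, had 572, 831 and 494 normalized counts in the control lines (5-9, 2 and 16) and 681, 979 and 607 in the PWS lines (3, 19-1 and 19-4). Control line 2 exceeded PWS lines 3 and 19-4, and subclones 19-1 and 19-4 differed by 0.688 on the log2 scale. Between groups the log2 fold change of 0.26, with a standard error of 0.22, had an adjusted p of 0.701 in limma. It was 0.060 without line 19-1, 0.10 without line 16, 0.40 without line 19-4 and 0.48 without line 2.

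Gpr119 (ENSRNOG00000024517), a receptor for lipid amides that couples to the stimulatory G protein, had 309, 94.5 and 1288 normalized counts in the control lines (5-9, 2 and 16). In the PWS lines (3, 19-1 and 19-4) it had 238, 573 and 680. The 3 PWS lines lay between the lowest and the highest control line, and line 16 had 13.6 times the value of line 2. The exact Poisson 95% intervals of the counting error were 77.2 to 115 in line 2 and 1220 to 1360 in line 16, without overlap. The arithmetic means were 564 ± 636 (SD, n = 3) and 497 ± 231 (SD, n = 3), lower in PWS lines, whereas the log2 fold change was 0.43 (standard error 0.83), higher in PWS lines. With an adjusted p of 0.887 in limma and a 95% interval from 0.362-fold to 5.01-fold, no direction between groups was detectable. Leaving out line 2 gave -0.48, and leaving out line 16 gave 1.4.

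Chrm3 (ENSRNOG00000049410), the muscarinic receptor through which acetylcholine acts on β-cells, had 37.0, 43.1 and 46.2 normalized counts in the control lines (5-9, 2 and 16) and 36.8, 39.5 and 29.1 in the PWS lines (3, 19-1 and 19-4). It had the fewest reads of the 10, 131 in the control group and 101 in the PWS group. The widest counting interval of a control line, 33.7 to 61.8 in line 16, overlapped that of every PWS line. Its log2 fold change of -0.26, with a standard error of 0.22, had an adjusted p of 0.686 in limma and a 95% interval from 0.592-fold to 1.17-fold. Without line 19-4, the lowest line, it was -0.14.

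Adra2a (ENSRNOG00000047545), the α2A-adrenergic receptor, had 318, 241 and 370 normalized counts in the control lines (5-9, 2 and 16) and 354, 300 and 344 in the PWS lines (3, 19-1 and 19-4). All 3 PWS lines fell within the control range. A log2 fold change of 0.12, with a standard error of 0.16, had an adjusted p of 0.826 in limma and a 95% interval from 0.840-fold to 1.41-fold. Without line 2 it was -0.047.

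Sstr3 (ENSRNOG00000007332), a somatostatin receptor, had 188, 18.4 and 84.2 normalized counts in the control lines (5-9, 2 and 16) and 117, 342 and 180 in the PWS lines (3, 19-1 and 19-4). The parental line 5-9 exceeded PWS lines 3 and 19-4, and line 2, with 20 reads, lay far below every other line. Its counting interval was 11.2 to 28.4, and the next lowest line, line 16, had 67.0 to 105. The means were 96.9 ± 85.5 (SD, n = 3) and 213 ± 116 (SD, n = 3). The log2 fold change of 1.52 (standard error 0.75) was the largest of the 10 in size, but its 95% interval ran from 0.872-fold to 9.43-fold and its adjusted p was 0.496 in limma. Without line 2 it was 0.62, and without line 5-9 it was 2.26. Subclones 19-1 and 19-4 differed by 0.922 on the log2 scale, the largest such difference of the 10.

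Insr (ENSRNOG00000029986), the insulin receptor, had 1179, 1083 and 1358 normalized counts in the control lines (5-9, 2 and 16) and 1356, 1620 and 2013 in the PWS lines (3, 19-1 and 19-4). The highest control line and the lowest PWS line, 16 and 3, were nearly level, with 1322 and 1328 reads. The 2 subclones of line 19 lay above every control line, and 19-4 above 19-1. The means were 1207 ± 139 (SD, n = 3) and 1663 ± 331 (SD, n = 3). The log2 fold change of 0.45 (standard error 0.15), or 1.37-fold with a 95% interval from 1.08 to 1.72, had the smallest adjusted p of the 10 (0.338 in limma). Leaving out single lines gave values from 0.30 to 0.59. The groups did not overlap under nonunique none counting or TMM scaling, where line 3 lay just above line 16.

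Igf1r (ENSRNOG00000014187), the IGF-1 receptor and closest relative of INSR, had 1247, 1873 and 1450 normalized counts in the control lines (5-9, 2 and 16) and 1426, 1772 and 1082 in the PWS lines (3, 19-1 and 19-4). Lines 3 and 19-1 lay within the control range, and 19-4 below it. The groups differed by -0.10 in log2 units with a standard error of 0.20 (adjusted p = 0.886 in limma), with a 95% interval from 0.682-fold to 1.27-fold, and by 0.082 without line 19-4. In line 19-4, Igf1r was the lowest and Insr the highest of the 6 lines. In line 2, Igf1r was the highest and Insr the lowest.

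**Figure D2:**
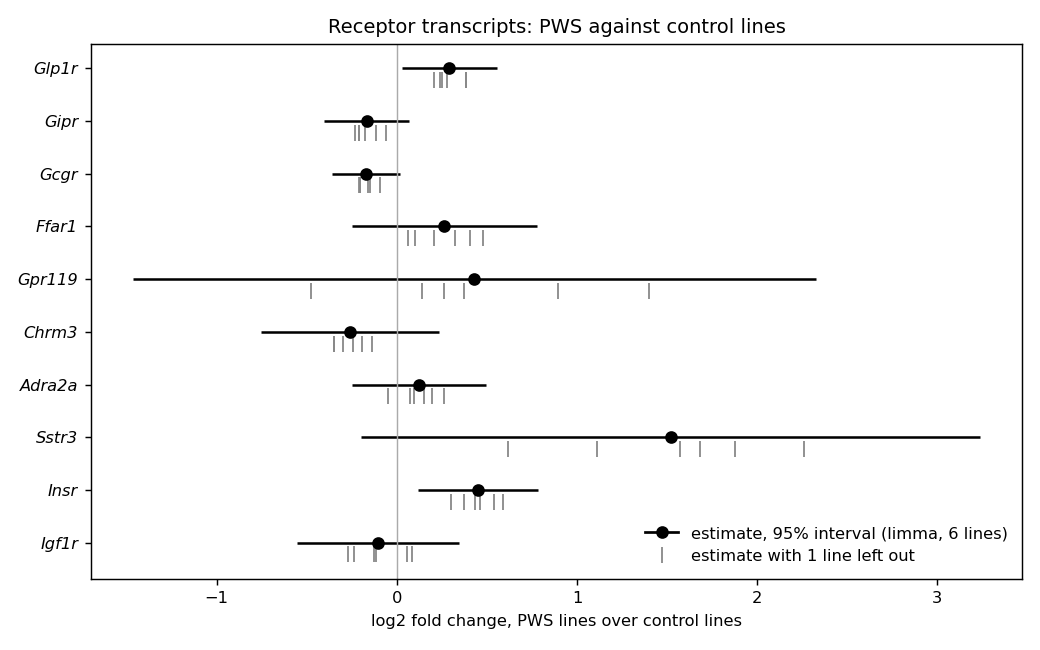
Log2 fold change of each receptor, PWS lines over control lines (horizontal axis), with the limma estimate from 6 lines as a point, its 95% interval as a line, and the estimates with 1 line left out as gray ticks. Only the intervals of Glp1r and Insr exclude 0 before adjustment, and those of Gpr119 and Sstr3 are by far the widest.

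By route, the 4 receptors that raise cAMP did not share a direction, as Glp1r and Gpr119 had positive and Gipr and Gcgr negative log2 fold changes. The Gq-coupled pair also differed in sign (Ffar1 0.26, Chrm3 -0.26), as did the receptor tyrosine kinases (Insr 0.45, Igf1r -0.10). Both Gi-coupled receptors had positive values (Adra2a 0.12, Sstr3 1.52), which became -0.047 and 0.62 without line 2. The sign held whichever single line was left out for 7 of the 10 receptors, the exceptions being Gpr119, Adra2a and Igf1r.

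Differences between lines of the same group were larger for some receptors than for most genes. The SD between lines of a group, on the log2 scale, had a median of 0.152 over all tested genes. It was 1.45 for Gpr119 and 1.3 for Sstr3, and only 0.578% and 0.693% of tested genes had a larger value. For Ffar1 (0.373), Igf1r (0.328), Adra2a (0.237), Insr (0.233), Chrm3 (0.194) and Glp1r (0.171) it also exceeded the median, while Gipr (0.151) was close to it and Gcgr (0.102) below. Control line 2 was the lowest or the highest of the 6 lines for 7 of the 10 receptors, where it was so for 47.9% of all tested genes. It was lowest for Glp1r, Gpr119, Adra2a, Sstr3 and Insr and highest for Gcgr and Igf1r. Neither the parental line 5-9 nor PWS line 3 was extreme for any of the 10, against 25.2% and 20.1% of tested genes. Subclones 19-1 and 19-4 differed by more than the median of all tested genes (0.171 on the log2 scale) for 9 of the 10 receptors, Gcgr (0.0219) being the exception.

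**Figure D3:**
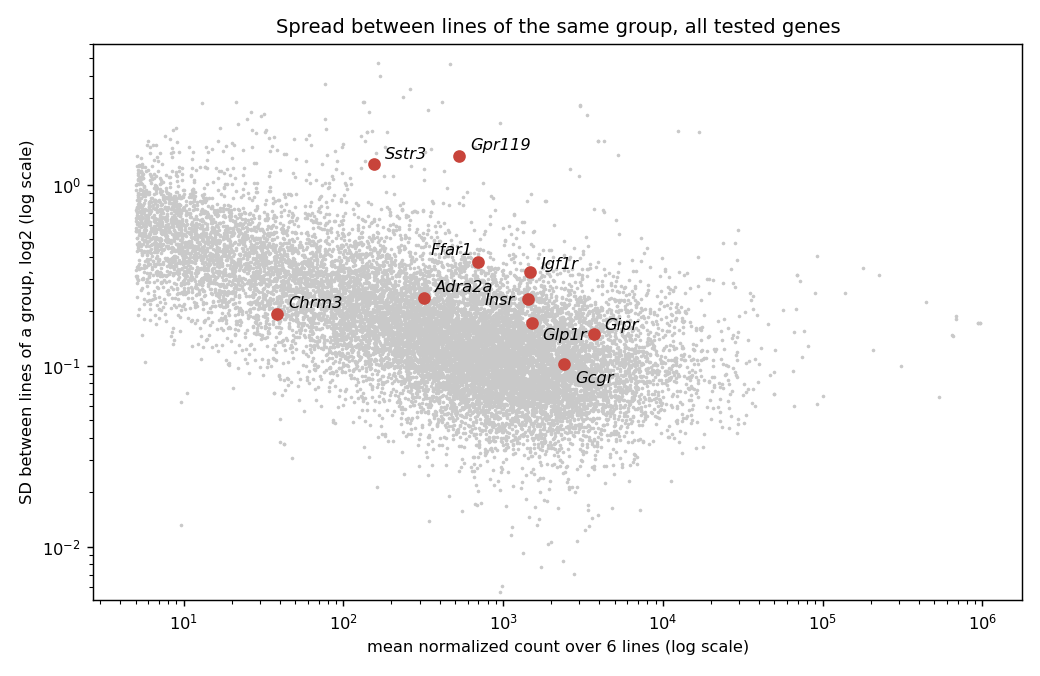
SD between lines of the same group on the log2 scale (vertical axis, log scale) against the mean normalized count over 6 lines (horizontal axis, log scale), with all 15579 tested genes in gray and the 10 receptors in red. Gpr119 and Sstr3 stand at the upper edge of genes with a similar mean, and Gcgr and Gipr lie within the bulk.

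Across the 300 bases around the start, the 3 receptors with the largest SD between lines were those with the fewest CpG dinucleotides relative to the base composition. The ratio of observed to expected CpG was 0.107 for Gpr119, 0.380 for Ffar1 and 0.529 for Sstr3, and at least 0.621 for every start of the other 6 genes with a sequence, up to 1.11 for Igf1r. Over all 33469 starts in the table the median ratio was 0.392, and 65.6% were under 0.6, so that the 3 genes resemble the majority of starts. Igf1r, with the highest ratio, had the next largest SD after these 3, which limits the description to 9 genes without a steady order. Only 63.3% of the tested genes could be matched to a start by symbol, under the 80% needed, so the same comparison over all genes was not made. The GC box GGGCGG, searched on both strands, was in 5 of the 10 starts (Gcgr has 2 in the table) and in 33.1% of all starts. The cAMP response element TGACGTCA and TATAAA were in none of them, against 1.83% and 14.2% of all starts.

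The other genes of these receptor families, their signalling routes, their ligands and 37 further receptors of islet cells were taken from lists, and none of the 195 that were tested met the adjusted threshold in limma or edgeR, beside 0.257% and 0.205% of all tested genes. DESeq2 called 7 of them (Casr, Gnao1, Npy, Grb10, Ffar2, Ffar4 and Gng2), where it called 1.46% of all tested genes. Without adjustment, 26 were higher and 15 lower at a p-value under 0.05 in limma, together 21.0% where all tested genes had 11.3%. The groups did not overlap for 23.6% of the 195, against 17.4% of all tested genes. The lists were chosen with earlier results of these data known, so these shares are not a test of the lists. Their median log2 fold change was 0.0134.

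Among close relatives of the 10, 0 genes of any list met the adjusted threshold in limma. Beside Glp1r, Gipr and Gcgr, 6 genes of the glucagon receptor family and its relatives were tested, and their median was 0.46 in log2 units. Of the 6, 2 were higher (Vipr2 and Calcrl) and 1 lower (Pth1r) at an unadjusted p under 0.05 in limma. Of all tested genes, 6% were higher and 5.35% lower at that threshold. Pth1r, the parathyroid hormone receptor, had 43.2 ± 7.69 (SD, n = 3) normalized counts in control and 17.4 ± 10.6 (SD, n = 3) in PWS lines (log2 fold change -1.395). Calcrl, which forms receptors for CGRP and adrenomedullin, had 14.8 ± 6.24 (SD, n = 3) and 30.3 ± 10.02 (SD, n = 3) (log2 fold change 1.02). Beside Ffar1 and Gpr119, 10 lipid receptors were tested, of which 1 was higher and 2 lower without adjustment. Ffar2, a receptor for short-chain fatty acids, had 203, 369 and 201 normalized counts in the control lines (5-9, 2 and 16) and 105, 153 and 127 in the PWS lines (3, 19-1 and 19-4), without overlap (log2 fold change -0.96, adjusted p = 0.277 in limma and 0.0213 in DESeq2). Ffar4, a second long-chain fatty acid receptor, had 30.4, 22.0 and 15.4 in the control lines and 37.8, 69.4 and 85.5 in the PWS lines (log2 fold change 1.44, adjusted p = 0.277 in limma and 0.0347 in DESeq2). Thus the DESeq2 calls in this family had opposite signs, and both genes lay apart between groups. The prostaglandin receptor Ptger3 had a log2 fold change of -0.78.

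Most other muscarinic, adrenergic and somatostatin receptors were absent or nearly so. Of the muscarinic receptors, Chrm4 was tested beside Chrm3 (65.2 ± 40.7 and 136 ± 36.5, SD, n = 3, log2 fold change 1.29), and Chrm1 and Chrm5 had no read in any line. Of the adrenergic receptors, Adra2c was tested beside Adra2a (15.5 ± 8.04 and 3.92 ± 4.10, SD, n = 3, log2 fold change -2.14), and all β-adrenergic receptors had at most 4 reads per group. Sstr1 (log2 fold change -0.22) and Sstr5 (-0.22) were tested beside Sstr3, and Sstr2 and Sstr4 had no read in any line. By counting error alone, a 0 could still stand for as many as 3 reads, equal to 2.73 normalized counts in one line and 3.59 in another at the extremes. Among the insulin and IGF receptors, Igf2r, which carries IGF-2 to lysosomes, was at 7380 ± 298 (SD, n = 3) in control and 7422 ± 165 (SD, n = 3) in PWS lines (log2 fold change 0.0087). Insrr, a relative of INSR, had 62.7, 1.84 and 94.5 in the control lines (5-9, 2 and 16) and 29.6, 2.39 and 0.909 in the PWS lines (3, 19-1 and 19-4). Line 2 was again low, as for Sstr3 and Gpr119, and so were both subclones of line 19.

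Of 14 ligand genes, 6 were tested, and the median was -0.54 in log2 units. Without adjustment 3 of the 6 were lower, beside 5.35% of all tested genes. Npy had a log2 fold change of -0.52 (adjusted p = 0.193 in limma and 0.00769 in DESeq2), although 0% of its reads were unique. Ins1 had -0.57 and Ins2 -0.99, Igf1 had -1.04, and Gcg had 2.12, with 100 normalized counts in line 19-4 and none in line 2. The incretin Gip had at most 4 reads per group, and Adcyap1 none.

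In the signalling routes the medians lay near 0. Among 23 G protein subunits (median 0.02), Gnao1, the α subunit of the inhibitory protein Go, had 410, 451 and 475 normalized counts in the control lines (5-9, 2 and 16) and 545, 1099 and 920 in the PWS lines (3, 19-1 and 19-4). Its log2 fold change was 0.88 (adjusted p = 0.277 in limma and 0.00342 in DESeq2), and without PWS line 3 it was 1.18 with an adjusted p of 0.0114 in limma. That fit holds a single PWS clone, since 19-1 and 19-4 are subclones taken as replicates, and with the subclones averaged 0 genes of the lists passed. The γ subunit Gng2 had -0.92 (adjusted p = 0.0423 in DESeq2), Gna12 had 0.32, and Gnas, the stimulatory α subunit used by the incretin receptors, had 0.025, at 45390 ± 7080 (SD, n = 3) in control and 45880 ± 3182 (SD, n = 3) in PWS lines. Among 37 genes of cAMP signalling (median 0.02), 5 were higher and 1 lower without adjustment, together 16.2% beside 11.3% of all tested genes. Their log2 fold changes ran from -0.73 for the phosphodiesterase Pde1a to 0.54 for Pde4a. The adenylyl cyclase Adcy6 had 0.28, the CREB coactivator Crtc1 0.36, and Prkar1a, a regulatory subunit of protein kinase A, -0.03. Of 26 genes of phospholipase C signalling (median 0.03), 5 were higher and 1 lower without adjustment, together 23.1% beside 11.3% of all tested genes. The inositol trisphosphate receptors Itpr1 and Itpr2 had 0.24 and 0.51, the diacylglycerol lipase Dagla 0.36 and the kinase Prkcz -0.47.

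For desensitization, 21 genes were tested (median -0.08), 2 higher and 2 lower without adjustment, together 19% beside 11.3% of all tested genes. Their log2 fold changes ran from -0.74 for the β-arrestin gene Arrb1 to 0.43 for the receptor kinase Grk5. The G protein regulators Rgs2 and Rgs17 had log2 fold changes of -0.71 and 0.29, and Vps35, a part of the retromer that recycles receptors, had 0.03. Downstream of Insr and Igf1r, 37 genes were tested (median 0.01). Without adjustment 2 were higher and 1 lower, together 8.11% beside 11.3% of all tested genes. Grb10, an adaptor that binds and inhibits both receptors, had 44.6, 100 and 57.5 normalized counts in the control lines (5-9, 2 and 16) and 19.4, 25.1 and 22.7 in the PWS lines (3, 19-1 and 19-4). All PWS lines were below all control lines (log2 fold change -1.47, standard error 0.31, adjusted p = 0.238 in limma and 0.0138 in DESeq2). Foxo1, a transcription factor that AKT restrains, had 0.51, and the kinase Gsk3b had 0.27.

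**Figure D4:**
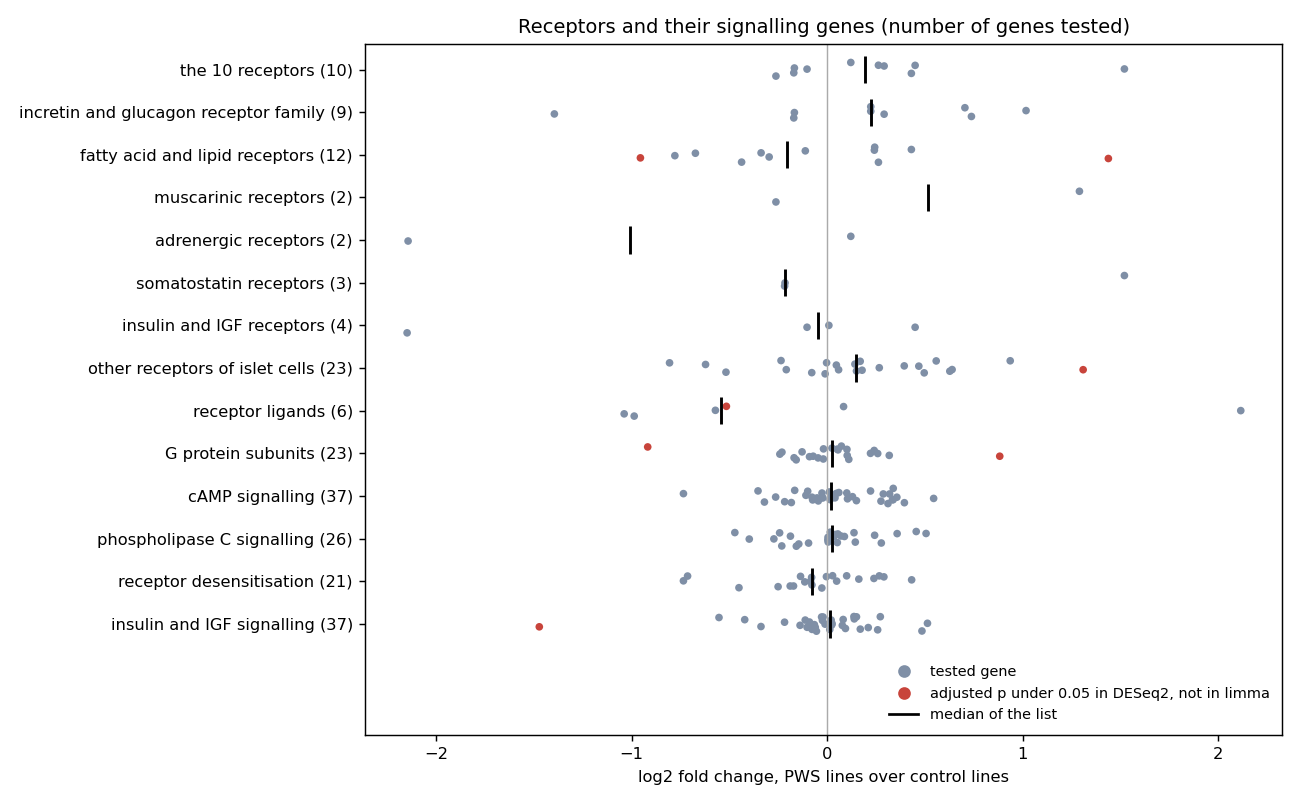
Log2 fold changes, PWS lines over control lines (horizontal axis), of the tested genes in each list, with the number tested in brackets (the 10 receptors counted in their own families too), the list median as a black bar, and genes with an adjusted p under 0.05 in DESeq2 but not in limma in red. The 7 red genes lie on both sides of 0, and none of the 10 receptors is among them.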

How the data were processed

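Total RNA of 6 INS-1 lines was sequenced after rRNA depletion. The authors trimmed reads with cutadapt, aligned them with STAR 2.7.0e to the Ensembl rat genome with transgenes added, counted them per gene with HTSeq 0.11.2 (nonunique all or nonunique none) or RSEM 1.3.1, and deposited a signal per line, the count over DESeq2's size factor. The tables' fold change and p-value columns hold the authors' own comparison and were not used. Of the HTSeq values above 0, 100% were whole multiples of the column's smallest (tolerance 0.01), so reads could be recovered. For RSEM 1.78% were.

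The nonunique all table was tested with limma 3.58.1 (R 4.3.3, eBayes with trend) on log2(normalized count + 1), which understates changes of low genes, for the 15579 genes averaging 5 or more, with Benjamini-Hochberg adjustment over all of them. edgeR 4.0.16 and DESeq2 1.42.0 on recovered reads were alternatives. An exact test of 3 against 3 lines allows no two-sided p under 0.1. The tests were checked on simulated counts. The 10 receptors and all lists were chosen with earlier results of these data known. Of the lists, genes were named by smallest p (at most 3), highest and lowest log2 fold change and highest mean, and a symbol with several features was taken at the one with the highest mean. One gene that this rule names is not reported here. Normalized counts are not per length, so levels were not compared between genes. Unique reads are nonunique none over nonunique all reads. Intervals cover counting error only.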

Additional observations from a re-analysis of the deposited data

How the results depend on the processing

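Under all 19 alternatives (edgeR, DESeq2, RSEM, nonunique none, TMM scaling, other pseudocounts and filters, no eBayes trend, each line left out, replicate block, 19-1 and 19-4 averaged, adjusted p under 0.1) the count of receptors past the threshold was 0. Chrm3 was not tested where genes had to average 50. The other genes of the lists past the threshold numbered 7 in DESeq2 and from 0 to 2 with each line left out (2, Casr and Gnao1, without line 3, which leaves 2 subclones of a single line as the PWS group), and 0 elsewhere. Receptors without overlap numbered 2 under nonunique none counting and 2 under TMM scaling, where Insr joined Gcgr. Signs turned for Gpr119 in edgeR (-0.17), DESeq2 (-0.18) and without line 2 (-0.48), for Adra2a without line 2 (-0.047), and for Igf1r without line 2 (0.057) and without line 19-4 (0.082). With single lines left out, the log2 fold change ran from -0.48 to 1.399 for Gpr119, from -0.047 to 0.26 for Adra2a and from -0.27 to 0.082 for Igf1r. The causes were not tested. Over all genes, the 40 calls became 228 in DESeq2, 16 under nonunique none, 12 in RSEM and 9 among genes averaging 50 or more. With the replicate number as a block, 0 receptors and 0 list genes passed. Deviations of same-numbered lines had correlations across genes of 0.00345, 0.0467 and 0.00513, and line 5-9 correlated best with 19-4 (0.0563). Whether same-numbered lines shared a batch was not tested. With 20 reads for Sstr3 in line 2 and 131 and 101 for Chrm3 in the 2 groups, depth limits these 2 most.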

Other observations

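Of 37 other receptor genes of islet cells, 23 were tested, with 6 higher and 2 lower for PWS lines at an unadjusted p under 0.05 in limma, together 34.8% where all tested genes had 11.3%, with 0 past an adjusted p of 0.05 in limma or edgeR and 1 in DESeq2. These genes were also chosen with earlier results of these data known, so the share is not a test of them. The median log2 fold change was 0.15. Casr, the calcium-sensing receptor, had 160, 100 and 109 normalized counts in the control lines (5-9, 2 and 16) and 167, 403 and 397 in the PWS lines (3, 19-1 and 19-4). Line 3 lay close to the parental line 5-9, and the subclones of line 19 stood apart from all other lines. Its log2 fold change was 1.31 (adjusted p = 0.277 in limma and 0.00242 in DESeq2), and without line 3 it was 1.73 (adjusted p = 0.0295 in limma), a fit whose PWS group is a single clone in 2 subclones, while 0 genes of the lists passed with the subclones averaged. Gabbr2, a subunit of the GABA-B receptor, was at 938 ± 83.1 (SD, n = 3) in control and 1234 ± 125 (SD, n = 3) in PWS lines, and Adora2b, an adenosine receptor, had 460 ± 61.5 (SD, n = 3) and 655 ± 136 (SD, n = 3). The log2 fold changes ran from -0.81 for the cholecystokinin receptor Cckar to 1.31 for Casr, and P2ry1, a purinergic receptor, had -0.0029 with 4804 ± 489 (SD, n = 3) and 4911 ± 1383 (SD, n = 3).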
